A study of Mus musculus with 8 samples.

Results

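Microglia and total cells of normal mouse brain were compared for lactylation of histone H4 at lysine 12 (H4K12la), from 4 of the 8 libraries of the series. These 4 were taken by their titles: 2 libraries of microglia and 2 of total cells, all from wild-type (WT) mice. The other 4 libraries come from 5XFAD mice, a transgenic model of Alzheimer disease, and were not used here. The mark was mapped by CUT&Tag, in which an antibody tethers a transposase to marked chromatin so that nearby DNA is cut and sequenced. The series asks which genes carry the mark in each preparation. WT animals were perfused with cold saline, and whole brain without the cerebellum was dissociated mechanically and with enzymes. Removal of myelin left the total cell suspension, which still contains its own microglia. Microglia were purified from such suspensions with magnetic beads against CD11b, a surface integrin (Itgam) that other myeloid cells also carry. Strain, age and sex are not given in the labels, and neither is whether replicates came from separate animals, so p-values measure only the spread between these samples.

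Histone lactylation is an acyl mark on lysine whose donor derives from lactate, the end product of glycolysis. Like acetylation, it is found mainly at promoters and enhancers of active genes and is written and removed by enzymes that also handle acetyl groups. Microglia are the resident macrophages of the brain. They depend on the receptor Csf1r and the transcription factor PU.1 (gene Spi1), and survey tissue through purine, Fc, complement and Toll-like receptors and through receptors such as Trem2 that signal by the adaptor Tyrobp. Total cells of a dissociated brain also hold astrocytes, oligodendrocytes, vascular cells and neurons, although adult neurons often do not survive dissociation whole.

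The deposited lists held 22300 and 33500 peaks in microglia 1 and 2, and 25271 and 22543 peaks in total cells 1 and 2. The lists give no read depth, so a missing peak means that none was listed, and a region absent because few cells carry it cannot be told apart from one weakly marked in every cell. A gene was scored as having a gene-end peak where a peak overlapped the 2 kb on either side of either annotated end. Each peak has a whole-number score given by the authors, which was turned into a percentile within its own list, 100 being the highest. Percentiles rank peaks within 1 list and show no change between lists. The classes used throughout are microglia-only (both microglia lists and neither total cell list) and total-cell-only (the reverse). Counts of genes, regions and list members in these classes were repeated with the 22300 highest-scoring peaks of each list, the length of the shortest, called equal numbers below. The similarity of lists was measured by the Jaccard index, the bases that a pair of lists shares divided by those that at least 1 of them covers. It was 0.487 between the microglia lists and 0.357 between the total cell lists. Across the preparations it lay at 0.166, 0.150, 0.151 and 0.131, below both.

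Promoters of 5 list members show the kind of sequence that lay under one-group peaks. Each was overlapped by a peak in both libraries of its group and in neither of the other. The 250 bases before the start site are printed 5′ to 3′ on the gene's strand from RefSeq (GRCm38.p6), with the PU.1 core GAGGAA, or its reverse complement TTCCTC, in capitals. Ccl12 encodes a monocyte-attracting chemokine (chr11:82101595-82101844, plus strand). C5ar2 encodes a second receptor of complement C5a (chr7:16244155-16244404, minus strand). Ptprc encodes CD45, the leukocyte phosphatase (chr1:138175306-138175555, minus strand). Dnm3 encodes a dynamin of synapses (chr1:162478035-162478284, minus strand), and its window overlaps that of 4930558K02Rik. Map2 encodes a dendritic microtubule protein (chr1:66175079-66175328, plus strand).
Ccl12: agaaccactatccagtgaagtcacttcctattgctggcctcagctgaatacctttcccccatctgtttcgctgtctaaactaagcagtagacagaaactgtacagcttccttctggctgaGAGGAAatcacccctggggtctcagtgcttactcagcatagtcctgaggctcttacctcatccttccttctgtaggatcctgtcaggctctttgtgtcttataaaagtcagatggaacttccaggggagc
C5ar2: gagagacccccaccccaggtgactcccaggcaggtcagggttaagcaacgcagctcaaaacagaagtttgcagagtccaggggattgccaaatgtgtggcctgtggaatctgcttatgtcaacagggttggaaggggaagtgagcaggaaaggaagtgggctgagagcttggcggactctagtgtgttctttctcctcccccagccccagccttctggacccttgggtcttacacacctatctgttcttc
Ptprc: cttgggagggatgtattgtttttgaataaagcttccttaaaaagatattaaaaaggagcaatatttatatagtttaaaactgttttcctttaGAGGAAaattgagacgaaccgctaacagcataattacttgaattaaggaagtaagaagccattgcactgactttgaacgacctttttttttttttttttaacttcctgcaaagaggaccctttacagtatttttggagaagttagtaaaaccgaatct
Dnm3: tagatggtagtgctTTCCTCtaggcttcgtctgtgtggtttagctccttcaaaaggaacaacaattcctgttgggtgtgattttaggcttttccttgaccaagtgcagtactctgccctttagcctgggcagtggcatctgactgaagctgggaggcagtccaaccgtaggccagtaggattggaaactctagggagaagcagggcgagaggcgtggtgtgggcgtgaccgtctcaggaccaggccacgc
Map2: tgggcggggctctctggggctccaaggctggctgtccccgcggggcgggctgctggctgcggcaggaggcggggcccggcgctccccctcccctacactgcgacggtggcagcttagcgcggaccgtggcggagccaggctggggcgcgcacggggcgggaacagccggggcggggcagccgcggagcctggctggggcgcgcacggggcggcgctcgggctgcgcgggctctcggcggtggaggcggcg
The Ccl12 peak ranked at the 93.9th and 98.7th percentile of the microglia lists, that of C5ar2 at 95.6 and 96.5, and that of Ptprc at 95.6 and 91.5. In the total cell lists, the Dnm3 peak ranked at 88.4 and 86.7 and the Map2 peak at 94.0 and 79.8. The core occurred once in the windows of Ccl12, Ptprc and Dnm3 and not in those of C5ar2 and Map2. GC content ran from 31.6% at Ptprc, through 48.4% at Ccl12, 54% at Dnm3 and 55.2% at C5ar2, to 81.2% at Map2, whose window holds 34 CpG dinucleotides.

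Of 21887 protein-coding genes, 7298 and 9517 had a gene-end peak in microglia 1 and 2, and 7982 and 7492 in total cells 1 and 2. The groups overlapped in this number (difference 670.5, p = 1, exact two-sided permutation test, whose smallest possible p for 2 against 2 is 0.333). Which genes were marked did differ: 1208 genes were microglia-only, 5.52% of all genes, and 753 were total-cell-only, 3.44%. A common set of 4568 genes (20.9%) had a peak in all 4 lists, and 10307 (47.1%) had one in none. With equal numbers, 1022 genes (4.67%) were microglia-only and 1000 (4.57%) were total-cell-only. The classes were then close to equal in size, and 953 of the 1208 and 700 of the 753 genes kept their class. A further 2747 genes had a peak in 1 of the 2 microglia lists and 3042 in 1 of the 2 total cell lists, so each pair of like libraries differed at more genes than either class holds. Neighbouring genes can share 1 peak: 667 microglia-only genes and 382 total-cell-only genes have a window that overlaps that of another gene. Leaving out a library loosens the rule, and the microglia-only count became 2222 without microglia 1 and 1964 without total cells 1. In the same way the total-cell-only count became 1570 without microglia 2, 1193 without total cells 1 and 1359 without total cells 2.

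Microglial identity genes carried the mark in microglia and mostly not in total cells. Of 25 marker genes, 21 and 24 had a gene-end peak in microglia 1 and 2, against 5 and 9 in total cells 1 and 2. None was unmarked in all 4 lists, 11 were microglia-only (5.52% of all genes were) and none was total-cell-only. At the 3.44% of all genes few of 25 would be total-cell-only. With equal numbers, 10 were microglia-only, Cx3cr1 being lost. The purine receptor P2ry12, by which processes sense ATP, had peaks at the 91.3rd and 94.2nd percentile in microglia and 5 separate microglia-only regions over its 46.7 kb. Tyrobp, the adaptor of many microglial receptors, reached 99.6 and 99.4, the second highest of all microglia-only genes. Its window overlaps that of Hcst, which encodes the related adaptor DAP10. The Fc receptor-like gene Fcrls had 59.2 and 91.1, the lysosomal protease gene Ctss 66.7 and 76.9, and Aif1, which encodes the cytoskeletal protein Iba1, 67.4 and 71.8. The lipid receptor gene Trem2 had 54.1 and 43.8. P2ry13, Selplg, C1qb, Itgam and Cx3cr1 completed the class, Cx3cr1 with low ranks of 6.95 and 22.3. Csf1r had peaks at 81.9 and 80.0 in microglia and at 22.7 in total cells 2, with 4 microglia-only regions in and around the gene. Of the others, 5 had a peak in all 4 lists, Sall1 among them, at 96.0 and 93.0 in microglia and at 89.5 and 82.2 in total cells. Tmem119 was listed in microglia 1 alone, at 33.1.

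**Figure D1:**
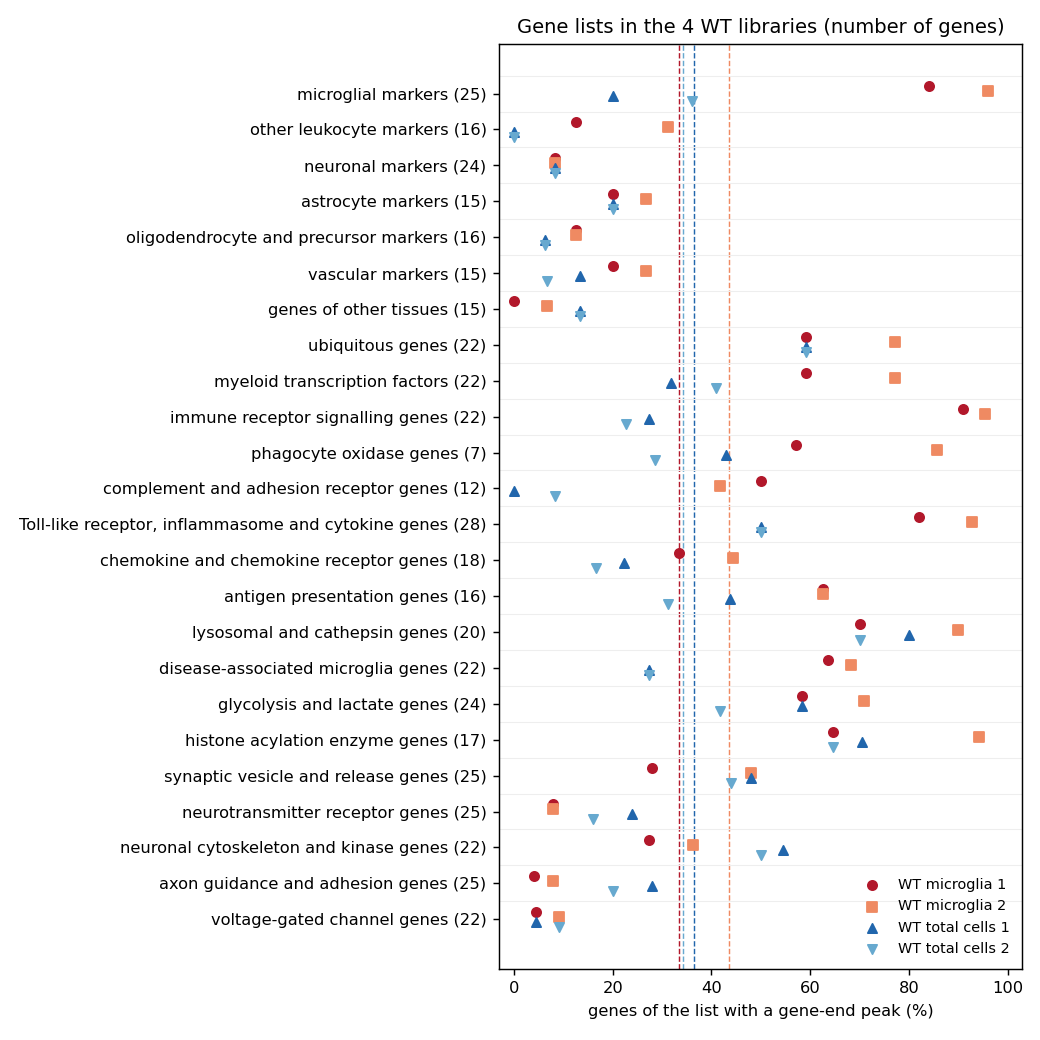
Share of each gene list with a gene-end peak (x axis, %), for 24 lists (y axis, number of genes in brackets), with 1 point per library. Dashed lines give the share of all genes in the library of that colour. The microglial markers lie at 84% and 96% in microglia and at 20% and 36% in total cells. The lists of axon guidance genes and neurotransmitter receptors lie higher in total cells than in microglia, but below the dashed line of each library.

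Transcription factors of the myeloid lineage differed less at gene ends than in the number of regions inside them. Of 22 such factors, 13 and 17 had a gene-end peak in microglia and 7 and 9 in total cells. Of the 22, 3 were microglia-only, against 5.52% of all genes. Among them were Sall3, at 58.3 and 65.7, and Bhlhe41, a factor of mature macrophages and microglia, at 36.2 and 65.7. Spi1 was marked in all 4 lists, at 78.4 and 82.4 in microglia and at 27.9 and 10.3 in total cells, from a window that overlaps that of Mybpc3. Irf8 had a gene-end peak in microglia 2 alone, at 14.1. When all merged regions in the body or within 2 kb were counted, 17 of the 22 had at least 1 microglia-only region and 1 had a total-cell-only region. Over all genes these shares were 19.4% and 13%. Etv6, an ETS repressor, had 10 microglia-only regions, Mef2a and Fli1 had 7 each, and Smad3 and Ikzf1 had 6 each. Mef2c, which has no gene-end peak in any list but a start-site peak in all 4, had 4 microglia-only regions and 6 regions shared by all 4. Factors in this list have a median length of 33.8 kb against 17.2 kb over all genes, and longer genes have more room for regions.

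Genes of immune receptor signalling held the highest share of microglia-only genes among the lists. Of 22 genes, 20 and 21 had a gene-end peak in microglia 1 and 2, against 6 and 5 in total cells 1 and 2. Microglia-only were 14 of the 22, against 5.52% of all genes. None was total-cell-only, where few of 22 would be at the 3.44% of all genes. Fcgr1, Fcer1g, Syk and Vav1 kept a peak in only 1 of the microglia lists with equal numbers, which left 10 of the 22 microglia-only. Among the 14 were Fc receptors that bind antibody (Fcgr1, Fcgr2b, Fcgr3 and the shared chain Fcer1g), the kinase Syk, and the adaptors Blnk and Pik3ap1. Ptprc led at 95.6 and 91.5. Hcst followed at 90.8 and 94.7. Was, the actin regulator mutated in Wiskott-Aldrich syndrome, lay at 80.6 and 90.5. Dock2 and Rac2, which drive leukocyte migration, lay at 61.0 and 73.5, and at 61.8 and 67.5. Fcgr1, at 0.729 and 29.5, lay near the lowest scores of the first list. All 22 genes had at least 1 microglia-only region in the body or within 2 kb (69 regions in all) and 2 had a total-cell-only region. Over all genes these shares were 19.4% and 13%. Inpp5d, the lipid phosphatase that restrains these receptors, had 10 microglia-only regions, Pik3ap1 had 9 and Plcg2 had 7, beside 2 total-cell-only ones. These genes have a median length of 42.1 kb.

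Effector genes of phagocytes followed. Complement and adhesion receptors had a gene-end peak in 6 and 5 of 12 genes in microglia and in 0 and 1 in total cells. The C5a receptors C5ar2 (95.6 and 96.5) and C5ar1 (92.3 and 94.6), which are neighbours with overlapping windows, the C3a receptor C3ar1 (88.1 and 92.6) and the integrins Itgb2 (64.5 and 71.0) and Itgax (8.0 and 57.2) were microglia-only. Of 7 genes of the phagocyte oxidase, which makes superoxide, Ncf1 (96.7 and 94.5) and Ncf4 (58.3 and 81.5) were microglia-only, and 6 of 7 had a microglia-only region. Of all genes, 5.52% were microglia-only at gene ends and 19.4% had a microglia-only region. None of the 19 genes of these lists had a total-cell-only region, but at the 13% of all genes few of 19 would.

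Of 28 genes of Toll-like receptors, inflammasome and cytokines, 23 and 26 had a gene-end peak in microglia and 14 and 14 in total cells, and 12 had one in all 4 lists. The microglia-only ones, 7 of the 28, were the inflammasome genes Casp1 (78.4 and 94.7) and Nlrp3 (54.1 and 83.2), the cytokine gene Il1b that they process (72.7 and 88.2), the RNA sensor Tlr7 (55.0 and 89.8), the lipopeptide sensor Tlr1 (62.5 and 76.9), the adaptor Ticam1 (15.5 and 62.0) and Il6ra (11.3 and 17.1), which left the class with equal numbers. The window of Casp1 overlaps that of its neighbour Casp4, which had the same percentiles in microglia and a peak at 24.5 in total cells 1. The windows of Nlrp3 and Ticam1 overlap those of Olfr222 and Plin3. Among 18 chemokine and chemokine receptor genes, 3 were microglia-only, among them Ccl12 and Ccl6. Of the 18, 3 had a peak in all 4 lists and 9 in none. Over all genes, 5.52% were microglia-only, 20.9% had a peak in all 4 lists and 47.1% in none. The chemokine list had a peak in 33.3% and 44.4% of its genes in microglia, near the 33.3% and 43.5% of all genes. In total cells it had one in 22.2% and 16.7%, against 36.5% and 34.2% of all genes. Among 16 antigen presentation genes, 3 were microglia-only (H2-D1, Cd80 and H2-Ab1) and 5 had a peak in all 4 lists. H2-Ab1 ranked at 0.729 and 7.45 and left the class with equal numbers. Of 22 genes known from disease-associated microglia, here in WT brain, 14 and 15 had a peak in microglia and 6 and 6 in total cells. The microglia-only ones, 8 of the 22, were Tyrobp, Cd52 (96.2 and 95.7), Trem2, Axl, Timp2, Itgax, Ccl6 and Lpl, the last at 14.0 and 42.8. Some of these also stand in the lists above.

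Of 20 lysosomal genes, 14 and 18 had a peak in microglia and 16 and 14 in total cells, 12 had one in all 4 lists, and none was in a one-group class. At the 5.52% and 3.44% of all genes few of 20 would be in either, and with equal numbers 1 was total-cell-only. Of 17 enzymes that add or remove histone acyl groups, 8 had a peak in all 4 lists. Kat7, an acetyltransferase of H3 and H4, was microglia-only at 53.1 and 70.5, and so was Hat1, at 22.1 and 62.5. Hdac3, a deacetylase with delactylase activity in vitro, was total-cell-only at 98.5 and 85.6, in a window that overlaps those of Diaph1, Fchsd1 and Rell2. Of 24 genes of glycolysis and lactate transport, 14 and 17 had a peak in microglia and 14 and 10 in total cells, and 7 had one in all 4. The lactate exporter gene Slc16a3 (81.0 and 86.4), the hexokinase gene Hk2 (57.5 and 55.9, with 6 microglia-only regions), Pgam1 (60.1 and 51.0) and Eno2 (14.0 and 14.1) were microglia-only. With equal numbers 3 of the 24 were microglia-only, Eno2 being lost, and 2 were total-cell-only. The lactate dehydrogenase gene Ldhb, on the other hand, had a peak in all 4 lists, at 61.8 and 62.0 in microglia and at 90.2 and 96.8 in total cells, while Ldha had no gene-end peak in any list but a start-site peak in 1 of the microglia and in both total cell lists. Among 22 ubiquitous genes, 2 were microglia-only, Actb among them, and 8 were marked in all 4.

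Genes of axon guidance and adhesion were marked in more members in total cells than in microglia. Of 25 such genes, 1 and 2 had a gene-end peak in microglia (4% and 8%) and 7 and 5 in total cells (28% and 20%). Over all genes the shares were higher in every library, at 33.3% and 43.5% in microglia and 36.5% and 34.2% in total cells. With equal numbers, 1 and 1 of the 25 had a peak in microglia and 4 and 5 in total cells. Cntn1, which encodes the adhesion protein contactin (2.71 and 2.79), and Lrrc4c, a netrin-G ligand gene (84.3 and 59.3), were total-cell-only, against 3.44% of all genes. Cntn1 kept a peak in only 1 of the total cell lists with equal numbers. At least 1 total-cell-only region lay in the body or within 2 kb of 12 of the 25, and a microglia-only region in 2, against 13% and 19.4% of all genes. Nlgn1, the gene of a synaptic adhesion protein, had 6 total-cell-only regions over its 911 kb and Cntn1 had 4. Ncam1 and Lrrc4c had 3 each, and none of these 4 genes had a microglia-only region. The median length of the list is 444 kb.

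Receptors, synaptic proteins and the cytoskeleton gave a mixed pattern. Of 25 neurotransmitter receptors, the glutamate receptor gene Grik2 (79.4 and 62.6), the GABA receptor gene Gabra2 (81.0 and 38.5) and the serotonin receptor gene Htr2a (54.3 and 53.3) were total-cell-only, none was microglia-only, and 16 had no gene-end peak in any list. Over all genes, 3.44% were total-cell-only, 5.52% were microglia-only and 47.1% had no such peak. Of 22 cytoskeleton and kinase genes, 5 were total-cell-only, namely Camk2g (98.8 and 95.3), Sptan1 (81.0 and 28.0), Sptbn1 (67.3 and 35.4), Ank2 (56.1 and 22.7) and Map1b (47.3 and 7.13). However, Ank2 and Sptbn1 had a peak within 2 kb of the start site in both microglia and both total cell lists. Camk2g had peaks elsewhere in its body in both microglia lists, and Ank2 had 6 microglia-only regions beside 2 total-cell-only ones. Mapt and Camk2b were microglia-only, at 29.2 and 15.1, and at 38.5 and 47.8. Both share a window with a neighbour, Kansl1 and Ykt6. Mapt left the class with equal numbers. In the body or within 2 kb, 11 of the 22 genes had a microglia-only region (36 regions) and 12 had a total-cell-only one (23 regions), against 19.4% and 13% of all genes. The median length of this list is 117 kb, against 17.2 kb over all genes, and longer genes have more room for regions. Of 25 synaptic vesicle genes, 3 were total-cell-only, among them Dnm3 and Syt7 (80.0 and 64.6), and Nsf (41.0 and 56.5) and Stx1a (3.03 and 14.1) were microglia-only, Stx1a not with equal numbers. Of 22 voltage-gated channel genes none was in a one-group class, where few would be at the 5.52% and 3.44% of all genes. No gene-end peak in any list was found for 19 of the 22, against 47.1% of all genes.

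Markers of the other brain cells did not stand out in total cells. Of 24 neuronal markers, 2 had a gene-end peak in each of the 4 libraries and 19 had none in any. In the full lists, gene ends of these neuronal markers were thus no more often marked in total cells than in microglia. With equal numbers, 2 and 0 of them had a peak in microglia and 2 and 2 in total cells. Of all genes, 33.3% and 43.5% had a gene-end peak in microglia, and 36.5% and 34.2% in total cells. Microglia-only were 5.52% of all genes and total-cell-only 3.44%. A single one-group gene in lists of 15 to 24 genes, as here, lies near these shares. Of the neuronal markers, Map2 alone was total-cell-only. Rbfox3 (16.7 and 6.19) and Eno2 were microglia-only, both in windows that overlap those of neighbours, and neither kept the class with equal numbers. Of 15 astrocyte markers, 3 and 4 had a peak in microglia and 3 and 3 in total cells, which became 3 and 1, and 3 and 3, with equal numbers. The gap junction gene Gjb6 was total-cell-only at 27.9 and 11.8, while the glutamate transporter gene Slc1a3 was microglia-only at 88.1 and 97.9, with 7 microglia-only regions. Of 16 oligodendrocyte markers, 2 had a peak in each microglia library and 1 in each total cell library, and Mbp, a myelin gene, was microglia-only at 71.4 and 87.4. Of 15 vascular markers, 3 and 4 had a peak in microglia and 2 and 1 in total cells. The endothelial genes Pecam1 (91.6 and 91.4, with 6 microglia-only regions), Kdr (73.6 and 87.6) and Cdh5 (62.5 and 51.0) were microglia-only. This class rests on gene ends: Slc1a3, Mbp and Pecam1 had peaks elsewhere in the body in both total cell lists. Kdr had one in 1 of them and Cdh5 in neither. Of 16 markers of other leukocytes, 2 and 5 had a peak in microglia and none in either total cell library. Mrc1, a gene of border macrophages (14.0 and 42.8), and Cd3d, a T cell gene (59.2 and 26.6), were microglia-only, Cd3d not with equal numbers, and 11 had no peak in any list. The part of such cells in the microglia-only counts was not tested. Of 15 genes of other tissues, 0 and 1 had a peak in microglia and 2 and 2 in total cells, and 13 had none in any list. The lipoprotein gene Apoa1 was total-cell-only at 27.9 and 66.1, in a window that overlaps that of Apoc3, and the thyroid gene Tg held 9 microglia-only regions over 180 kb with none at its ends.

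Microglia-only genes were also ranked by score, and the first 20 that kept their class with equal numbers included Tyrobp, Ccl12, C5ar2, Cd52 and Ncf1 of the lists above. Clec2i, a C-type lectin gene of chromosome 6 (gene 93675, 128887587 to 128898168), led at 99.6 and 99.6, in a window that overlaps that of BC035044. Neurl3, a ubiquitin ligase gene induced by inflammation, had 98.1 and 99.6. Havcr2, which encodes the checkpoint receptor TIM-3 (chromosome 11, 46454931 to 46481255), had 98.0 and 98.6. The olfactory receptor genes Olfr111 (99.2 and 99.3) and Olfr110 (96.4 and 96.1), neighbours on chromosome 17, also belonged to the first 20. So did the growth factor gene Pdgfb (94.9 and 97.7), the chromatin reader gene Yeats4 (97.7 and 96.2) and the urate transporter gene Slc2a9 (96.8 and 96.9). Gabpb1, a subunit of an ETS factor, had 96.2 and 96.8 at its gene ends, but within 2 kb of its start site alone a peak lay in 1 of the microglia lists and in both total cell lists. The first 20 total-cell-only genes were led by Peli1, a ubiquitin ligase gene of Toll-like receptor signalling (chromosome 11, 21091283 to 21150327), at 99.1 and 98.0, which had microglia peaks elsewhere in its body. Cnmd, the gene of chondromodulin, followed at 97.9 and 97.2, Camk2g at 98.8 and 95.3, and Tnfrsf19, a receptor gene of neural progenitors, at 96.2 and 97.2. Csrp1, at 97.0 and 96.8, had a start-site peak in 1 of the microglia lists and in neither total cell list. Of the microglia-only genes, 356 had a total cell peak somewhere in the body or within 2 kb (29.5%), and of the total-cell-only genes 270 had a microglia peak there (35.9%).

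Merging overlapping peaks of the 4 lists gave 54019 regions. Of these, 9718 were microglia-only (18%), 5154 were total-cell-only (9.54%) and 6504 (12%) were covered in all 4 lists. With equal numbers, 8225 of 45622 regions were microglia-only (18%) and 5633 were total-cell-only (12.3%). Gene ends held 18.7% of microglia-only and 20.3% of total-cell-only regions, against 25.7% of all merged regions and 55.8% of the regions of all 4 lists. Start-site windows held 12%, 15.2%, 18.7% and 46.8% in the same order. Gene bodies held 56.2% of microglia-only and 56.4% of total-cell-only regions, near the 54.1% of all merged regions, and 32.7% of those shared by all 4. Regions of all 4 lists ranked higher within each list, with median percentiles of 68.7 and 79.2 in microglia and 78.3 and 75.7 in total cells. Microglia-only regions had medians of 45.8 and 61.5, and total-cell-only regions 54.3 and 50.7. Without microglia 1 the microglia-only count became 19881, and the total-cell-only count became 11246 without total cells 1 and 12887 without total cells 2.

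**Figure D2:**
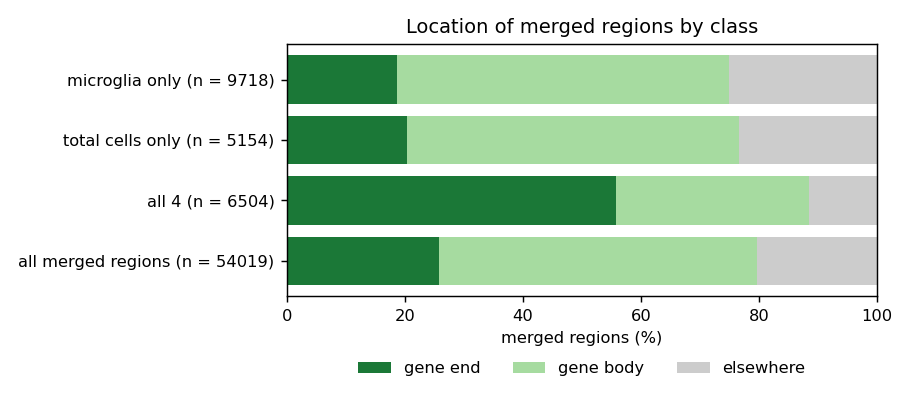
Share of merged regions (x axis, %) that lie within 2 kb of a gene end, elsewhere in a gene body, or outside both, for each class of region (y axis, number of regions in brackets). Regions of all 4 lists lie at gene ends in 55.8% of cases, and both one-group classes in 18.7% and 20.3%.

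The one-group regions with the highest scores named single sites. Among microglia-only regions the first was in the body of Mid1, a ubiquitin ligase gene of the X chromosome (169980038 to 169981473, 1436 bp), above all but a few peaks of either list. One of 2869 bp (chromosome 2, 167752600 to 167755468) lay 62168 bp from Cebpb, the gene of a macrophage factor with no gene-end peak in any list, at 99.6 and 99.8. Others of the first 10 lay in Synj2, Bbs9, Itpr2 and Tbccd1, at Clec2i and at Tyrobp. The total-cell-only region ranked first, at 99.9 and 99.9, was 403 bp wide (chromosome 2, 98662411 to 98662813) and 1030739 bp from the nearest gene, Lrrc4c. Next came a region in Rora, which encodes a nuclear receptor (chromosome 9, 69259435 to 69259867), at 99.8 and 99.7, and a 265 bp region in Sfi1 (chromosome 11, 3172415 to 3172679) at 99.7 and 99.6. In this assembly, the chromosome 2 site and Sfi1 are known for collapsed repeats that gather reads in many assays. No list of such regions was applied, and their part in these calls was not tested. The same holds for the first region of all 4 lists, 103857 bp from Esp38 on chromosome 17, and for that at the end of Lars2.

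Some long genes held many one-group regions. Nav3, a gene of a cytoskeletal guidance protein, held 24 of them over 774 kb and no total-cell-only region, with no gene-end peak in any list. Frmd4a held 23 beside 3 total-cell-only ones, Foxn3 held 17 beside 3, and Srgap2, Snx29 and Rad51b held 16 each. Rbm47, which encodes an RNA-binding protein, held 14 over 135 kb and was itself microglia-only at gene ends, whereas Foxn3, Snx29 and Lrch1 were total-cell-only there. Plcl2 and Ubac2 also held 14 each, and Lrch1 held 13. Zbtb20, a transcription factor gene, held 17 total-cell-only regions, beside 1 microglia-only region and 10 of all 4 lists. Nfia, a factor of astrocyte development, held 12 beside 5 microglia-only ones, Rora held 11 beside 2, Tcf4 held 10 beside 1, and Sox6 held 10 beside none. Syne1, the gene of a giant nuclear envelope protein, held 13 beside none. In all, 81 genes had 8 or more microglia-only regions and 18 had as many total-cell-only ones. These are long genes, and a count of regions rises with length.

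**Figure D3:**
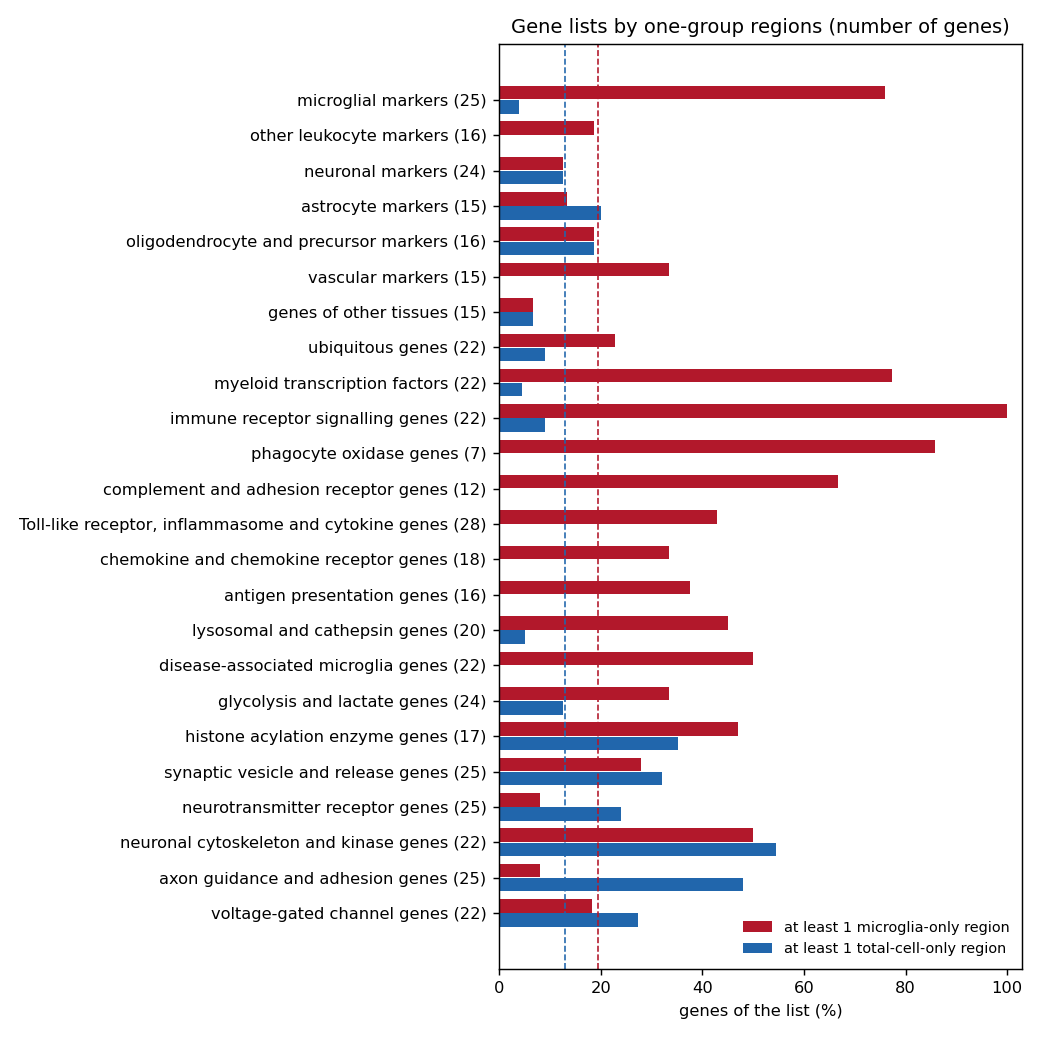
Share of the genes of each list (x axis, %) with at least 1 microglia-only or total-cell-only merged region in the body or within 2 kb, for 24 lists (y axis, number of genes in brackets). Dashed lines mark all protein-coding genes, at 19.4% and 13%. All immune receptor signalling genes have a microglia-only region, and 48% of the axon guidance genes have a total-cell-only one.

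Microglial peaks were wider than those of total cells. The median peak width was 580 and 647 bp in microglia and 318 and 287 bp in total cells, a difference of 311 bp with no overlap between groups (p = 0.333, the smallest the exact permutation test can give). Peaks of 1 kb or more made up 17.2% and 24.6% of the microglia lists, against 1.57% and 0.955% of the total cell lists. The lists covered 15.3 and 26.1 Mb in microglia and 9.61 and 7.78 Mb in total cells. With equal numbers the medians were 580 and 814 bp, and 336 and 289 bp. A difference in the same direction was found at the same places. For each of the 6504 regions of all 4 lists, the bases covered by the peaks of a list were added up. Their median per region was 710 and 951.5 bp in microglia and 500 and 438 bp in total cells (difference 361.75 bp, exact permutation p = 0.333). At 4332 of these regions (66.6%) both microglia libraries covered more bases than both total cell libraries, and at 273 (4.20%) the reverse held. The narrowest peak listed was 273 and 279 bp in microglia and 183 and 172 bp in total cells, so the lists also differ in their lower limit of width. Fragment lengths and caller settings are not in these lists, and their part in the widths was not tested. In every library, gene-end peaks were wider than the others, by the least in microglia 1 (588 against 576 bp) and by more in total cells 1 (374 against 298 bp).

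**Figure D4:**
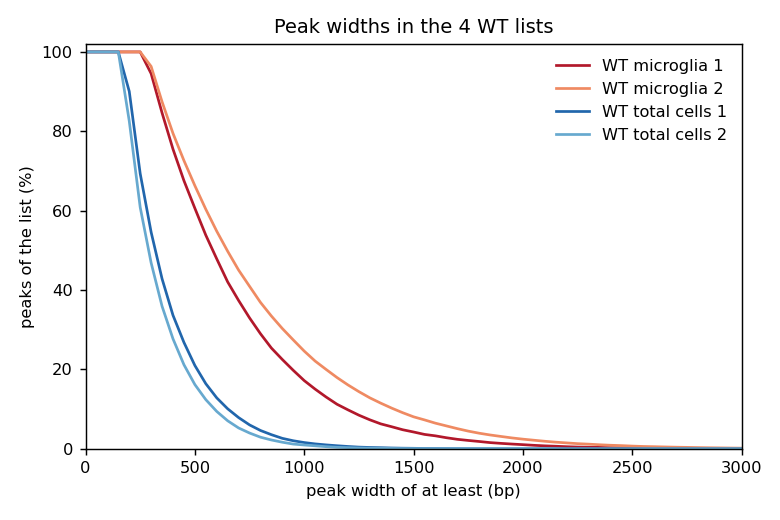
Share of the peaks of each list (y axis, %) that are at least as wide as the value on the x axis (bp), with 1 line per library. At 1 kb the microglia lines stand at 17.2% and 24.6% and the total cell lines at 1.57% and 0.955%.

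Promoters of the classes differed in base composition and in short motifs. RefSeq gives a start site for 17492 of the genes (79.9%), including 955 microglia-only, 597 total-cell-only and 3744 genes of all 4 lists. A window of 250 bases before to 50 after the start had a median GC content of 58.7% in microglia-only genes, 61.3% in total-cell-only genes, 60.3% in genes of all 4 lists and 49.7% in genes with no gene-end peak. Both strands were searched for 10 motifs. The PU.1 core GAGGAA was in 33.0% of microglia-only promoters, against 25.8% of total-cell-only ones, 24.9% of those of all 4 lists and 27.5% of all promoters. The ETS site CCGGAAG, typical of housekeeping promoters, was in 17.2%, 8.04%, 20.9% and 11.9% in the same order. Sites of CREB (TGACGTCA) were in 3.14%, 1.68%, 4.27% and 2.33%, and part of the NRF1 site (GCATGCGC) was in 4.92%, 2.35%, 6.17% and 3.61%. The E-box CACCTG was in 18.6% of microglia-only, 22.8% of total-cell-only and 19.3% of all promoters. The interferon element GAAANNGAA was in 8.48%, 5.36% and 8.24% in that order, and the AP-1 site TGANTCA in 6.18%, 6.87% and 7.03%. The GC box GGGCGG was in 56.2%, 60.8% and 46.3%, the CCAAT box in 35.5%, 36.9% and 39.2%, and the TATA box TATAAA in 9.11%, 6.70% and 13.3%. Of promoters of genes with no gene-end peak, 28.5% held the PU.1 core, 9.53% the interferon element and 9.53% the AP-1 site. The E-box was in 21.3% of them, the CCAAT box in 39.9% and the TATA box in 20.5%. The ETS site was in 4.86%, the CREB site in 1.27%, the part NRF1 site in 1.49% and the GC box in 27.0%. The motifs can overlap one another at their ends. Such matches describe letters in a window and no bound site. The classes also differ in GC content, whose part in these shares was not tested.

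**Figure D5:**
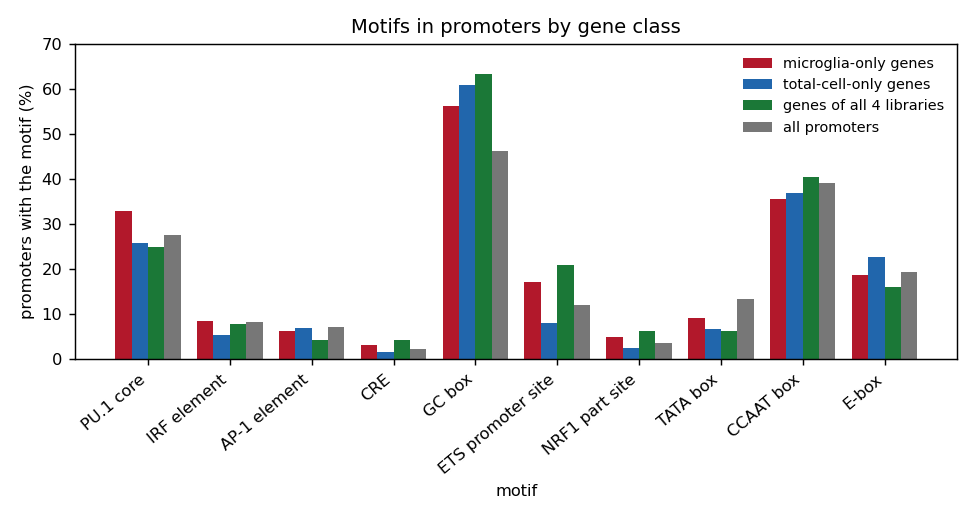
Share of promoters (y axis, %) that hold each of 10 motifs on either strand (x axis), for microglia-only genes, total-cell-only genes, genes of all 4 lists and all promoters. The PU.1 core stands at 33.0% in microglia-only genes against 27.5% of all promoters, and the ETS site at 8.04% in total-cell-only genes.

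MicroRNAs are short RNAs that silence messages matched by their seed, bases 2 to 8. This comparison and the microRNAs named were chosen after the data were seen. Of 1005 hairpins, 49 had a peak within 2 kb in both microglia lists and neither total cell list (4.88%), 22 showed the reverse (2.19%) and 43 had one in all 4 lists. These shares lie near or below the 5.52% and 3.44% of protein-coding genes. With equal numbers the counts were 45 and 24. Mature sequences from RefSeq, with the seed in capitals, are printed to show which families were involved. The first 4 are of microglia-only hairpins and the last 4 of total-cell-only ones.
miR-142a-3p: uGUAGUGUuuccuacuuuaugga
miR-23a-3p: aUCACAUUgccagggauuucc
miR-27a-3p: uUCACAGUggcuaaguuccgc
miR-24-3p: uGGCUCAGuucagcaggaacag
miR-128-3p: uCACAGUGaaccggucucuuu
miR-181a-5p: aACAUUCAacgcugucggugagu
miR-181b-5p: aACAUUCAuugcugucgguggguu
miR-26a-5p: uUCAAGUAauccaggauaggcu
Mir142, a microRNA gene of blood cells (chromosome 11, 87756864 to 87756927), had peaks at 28.0 and 47.8 in microglia. Mir23a, Mir27a and Mir24-2 lie in 1 cluster on chromosome 8 (84208518 to 84208921) and share their peak, at 29.2 and 55.3. Mir128-2, a gene of a neuronal microRNA inside Arpp21, had peaks at 86.4 and 81.8 in total cells. Mir181a-1 and Mir181b-1 share a seed and a peak, at 34.6 and 13.5 in total cells, and Mir26a-1, inside Ctdspl, had 48.7 and 15.3. A peak near a hairpin can belong to the host or to a neighbouring gene, and levels of these RNAs were not measured here.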

How the data were processed

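H4K12la CUT&Tag peak lists of 2 WT microglia and 2 WT total cell libraries were used, grouped by their titles. The lists of 5XFAD mice were left out. The genome was GRCm38 (mm10), and the tools named are fastp 0.19.6, Bowtie2 and deepTools, per the submitters' processing notes. How peaks were called, with which threshold and against which control, is not given in the sources used here. Each library has its own list, so peaks appear to have been called per library. Each line of a list gives a region and the score that the authors deposited for it, a whole number of unstated unit whose lowest value is 20 in all 4 lists. No read counts are given, so depth and counting intervals are unknown. The length of a list may depend on its reads.

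Starts were taken as counted from 0 and printed from 1. Only peaks on chromosomes 1 to 19, X or Y entered, which left out 16 to 37 per list. A score percentile was the mean rank of a peak within its list, and a gene took its highest one. Overlap by 1 base counted. Protein-coding genes, start sites, promoters and microRNAs came from RefSeq tables (GRCm38.p6). Exons and introns were not used here. No list pair shared more than 193 exact intervals, and none was treated as a duplicate. Single values per library were compared by exact two-sided permutation tests, and genes and regions by presence in each library, with no test. Python 3.11.15, numpy 2.4.6 and pandas 2.3.3 were used, and the code that finds overlaps was tested on simulated data. Alternatives were equal numbers, a score of at least 50, the higher-scoring 50% of peaks, other windows, merging rules and leaving out each library.

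The comparison, its 24 gene lists (463 genes, all matched) and the tests were chosen with earlier results of these data known. Some list members are counted but not reported by name here. Genes named were list members, first those of the one-group classes by mean percentile. Further names were the 20 genes and 10 regions of each class with the highest mean percentile that kept it with equal numbers, the 10 genes with the most one-group regions and the 10 genes ranked highest over all 4 lists. The promoters shown were the first list members of each class whose promoter lay under a peak in both its libraries.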

Additional observations from a re-analysis of the deposited data

How the results depend on the processing

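Of the class counts for genes, none moved by over 1.5 times except where windows that overlap another gene's were left out (541 microglia-only and 371 total-cell-only genes, of 12616 genes) or a library was left out, which gave 1308 to 2222 and 831 to 1570 genes. For regions, leaving out a library gave 11147 to 19881 microglia-only and 5388 to 12887 total-cell-only regions. With a score of at least 50 there were 2598 total-cell-only regions, and with the higher-scoring 50% of peaks there were 5458 microglia-only and 3148 total-cell-only regions. The number of genes with a gene-end peak, higher by 670.5 in microglia, turned to -109 with equal numbers and -291 with the higher-scoring 50%, and ran from -439 (without microglia 2) to 1780 without 1 library. The Jaccard index became 0.537 for microglia with equal numbers, and 0.394 and 0.398 for total cells with a score of at least 50 and the higher-scoring 50%. Without 1 library, the difference ran from 277.5 to 344.5 bp for median width, 6.61 to 17.4 Mb for covered length and -2.46 to -0.534 points for the gene-end share of peaks. With start-site windows, microglia libraries with a peak minus total cell libraries came to 1 for Csrp1 and -1 for Gabpb1, both turned in direction but in neither class. Of 124 named one-group genes, 110 kept their class with equal numbers and 82 with whole gene bodies. Genes named for their high rank were chosen among those that kept their class with equal numbers, so they could not fail that check. Among all genes of the classes, 953 of 1208 microglia-only and 700 of 753 total-cell-only genes kept their class with equal numbers. With a replicate block the width difference stayed at 311 bp (exact permutation p = 0.5, the smallest 2 pairs can give). The labels give only a number, and deviations of same-numbered libraries correlated at -0.0224 over genes and 0.0140 over regions. The cause of these shifts was not tested. Unknown depth limits every absence.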

Other observations

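The X chromosome held 1.90% and 1.98% of the peaks of microglia 1 and 2, and 1.12% and 1.23% of those of total cells 1 and 2. The groups did not overlap (exact permutation p = 0.333, the smallest possible). Of microglia-only regions 203 lay on X (2.09%), and of total-cell-only regions 46 (0.893%), against 1.65% of the regions of all 4 lists. Chromosome Y held 10 and 17 peaks in microglia and 4 and 3 in total cells. Chromosome 11, where the Ccl6 and Ccl12 cluster lies, held 7.54% and 7.54% of microglial peaks and 6.35% and 6.48% of those of total cells. These chromosomes were chosen after the values were seen, and the labels give no sex.

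Gene length also differed between the classes. Microglia-only genes had a median length of 17.6 kb and total-cell-only genes of 28.0 kb, against 24.1 kb for genes marked in all 4 lists, 10.8 kb for genes marked in none and 17.2 kb for all genes.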
